A study of Homo sapiens with 4 samples.

Results

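The regions described here are FOXK1 peaks that were strong in HK-2 cells given TGF-β1 and weak or missing in control cells. A strong peak had a height of 15 or more in the TGF-β1 list, and the height is read here as the number of sequenced fragments piled up at the peak. It was kept when no control peak overlapped it or when the highest overlapping control peak had a height of 8 or less. Chromosomes 1 to 22 and X were used, and 1 Mb blocks without a protein-coding gene in RefSeq were left out. Selected on these measured heights, the set took in 725 of the 10684 strong TGF-β1 peaks in these blocks (6.79%), out of 404303 TGF-β1 peaks of any height there and 439642 in the list.

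HK-2 is an immortalised line of human proximal tubular epithelial cells. The FOXK1 control library came from cells without TGF-β1, and the FOXK1 TGF-β1 library from cells given 10 ng/ml TGF-β1 for 24 h. Each condition had 1 FOXK1 immunoprecipitation and 1 input library of chromatin not enriched with antibody, which makes 4 libraries without replicates. No read totals were given, so the depth is unknown, and every statement below compares 2 libraries and not 2 conditions. Both heights chose the peaks, so heights are given as a description without a test.

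FOXK1 is a forkhead transcription factor that binds DNA through a winged-helix domain. In other settings it is known as a repressor of starvation and autophagy genes and as an inducer of aerobic glycolysis. TGF-β1 signals through receptor kinases to SMAD proteins, which bind DNA beside partners such as AP-1. In tubular cells it is known for raising matrix genes and lowering epithelial ones.

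Most of the 725 peaks lay away from gene starts. The RefSeq promoter windows used here (GRCh38.p14, 250 bases before to 50 after an annotated start) did not cover every chromosome or gene. Of the 684 peaks on chromosomes with windows, 23 overlapped a window, and they overlapped 30 windows of 27 genes. A promoter entry was present for 15811 of 19970 protein-coding genes, so the 23 are not a complete count of peaks at starts. The sequences of 5 windows are shown because peaks of the set lay on them and they hold letters of the motifs searched, at GC contents from 64.7% (CYCS) down to 46.3% (a lncRNA). They were picked after their values were seen. Each reads 5′ to 3′ on the gene's strand, with the searched motifs in capitals. PHF14 (chr7:10973622-10973921, plus strand) holds the reverse complement of the SMAD element CAGACA. GADD45G (chr9:89604762-89605061, plus strand) holds CCAAT, the letters read by NF-Y, and CYCS (chr7:25125211-25125510, minus strand) holds CCAAT on both strands. SEPTIN9 (chr17:77404827-77405126, plus strand, an internal start) holds the AP-1 letters TGANTCA. The lncRNA LOC105374721 (chr5:34585588-34585887, plus strand) holds TGANTCA and the forkhead letters GTAAACA.
PHF14: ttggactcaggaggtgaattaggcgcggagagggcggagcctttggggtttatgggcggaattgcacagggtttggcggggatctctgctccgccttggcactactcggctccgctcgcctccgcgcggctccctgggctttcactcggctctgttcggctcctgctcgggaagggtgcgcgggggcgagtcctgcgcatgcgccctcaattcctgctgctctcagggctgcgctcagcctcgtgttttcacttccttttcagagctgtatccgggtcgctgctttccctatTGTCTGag
GADD45G: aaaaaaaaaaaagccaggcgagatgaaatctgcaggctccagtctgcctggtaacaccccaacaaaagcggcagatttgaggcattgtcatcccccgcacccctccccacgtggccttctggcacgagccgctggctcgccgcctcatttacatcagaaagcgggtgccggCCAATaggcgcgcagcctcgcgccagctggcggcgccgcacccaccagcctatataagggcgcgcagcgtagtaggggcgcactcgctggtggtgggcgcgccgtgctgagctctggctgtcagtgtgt
CYCS: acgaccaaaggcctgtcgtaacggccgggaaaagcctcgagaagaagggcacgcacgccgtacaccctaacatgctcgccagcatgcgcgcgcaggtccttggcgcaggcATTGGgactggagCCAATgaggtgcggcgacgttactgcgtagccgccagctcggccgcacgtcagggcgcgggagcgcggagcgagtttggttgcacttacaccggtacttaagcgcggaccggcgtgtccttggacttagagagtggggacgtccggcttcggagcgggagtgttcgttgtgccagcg
SEPTIN9: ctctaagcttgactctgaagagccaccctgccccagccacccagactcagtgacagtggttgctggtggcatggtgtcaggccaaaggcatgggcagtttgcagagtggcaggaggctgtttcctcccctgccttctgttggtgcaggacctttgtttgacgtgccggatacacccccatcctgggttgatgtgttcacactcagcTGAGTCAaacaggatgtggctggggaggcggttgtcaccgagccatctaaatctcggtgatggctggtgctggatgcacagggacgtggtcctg
LOC105374721: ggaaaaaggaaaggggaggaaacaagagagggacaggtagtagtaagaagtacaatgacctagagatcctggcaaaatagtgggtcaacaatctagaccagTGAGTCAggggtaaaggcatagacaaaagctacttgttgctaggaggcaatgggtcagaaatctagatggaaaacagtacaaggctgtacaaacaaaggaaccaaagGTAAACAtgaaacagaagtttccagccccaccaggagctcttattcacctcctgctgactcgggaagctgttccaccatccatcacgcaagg

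On these windows the 2 lists read as follows. At PHF14, a PHD-finger chromatin protein, the TGF-β1 peak (chr7:10973642-10974906) had a height of 18, no control peak overlapped it, and the nearest control peak was 648 bp away with a height of 6. GADD45G, a growth-arrest and DNA-damage gene, had a TGF-β1 peak of 17 (chr9:89604234-89605443) and no control peak, with a control peak of 5 lying 445 bp away. The cytochrome c gene CYCS had heights of 17 with TGF-β1 and 8 in control. SEPTIN9, a cytoskeletal GTPase, had 17 and 7 at this internal start. The gene also held 5 peaks that were strong in both lists, the highest of 55 and 67. The lncRNA start had 16 and 7. All 5 were thus low peaks within a few units of the minimum of 15, and 3 of the 5 had a control peak of 7 or 8 under them.

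Motif letters in the 30 windows were counted on both strands. Whole windows were searched, so a match can lie outside the peak. This held for TAAACA in ANKRD36C and FAM230G, the RUNX letters in FAM230G and CCAAT in LOC105372725. The other matches lay inside the peak. GTAAACA was in 1 of the 30 (3.33%), against 7.04% of the 3325 windows under shared strong peaks, which are strong TGF-β1 peaks with a control peak above 8, and 3.42% of all 34961 windows. The shorter core TAAACA, which GTAAACA contains, was in 4 (13.3%), against 14.02% and 12.3%. TGANTCA, which reads the same on both strands, was in 2 (6.67%), against 6.53% and 7.68%, and CAGACA was in 5 (16.7%), against 13.3% and 16.9%. The TEAD letters GGAATG were in 5 (16.7%), against 11.5% and 14.04%, and the RUNX letters TGTGGTT in 2 (6.67%), against 3.70% and 4.28%. CCAAT was in 6 of 30 (20.0%, exact binomial 95% interval 7.71 to 38.6%), against 38.3% under shared strong peaks and 34.6% of all windows. GTCTAGAC, TTTCCCGC, TGACGTCA and the CTCF core motif were in none of the 30. The GC content of the 30 windows had a median of 64.8%, close to 63.7% under shared strong peaks and above 58.7% for all windows. With 30 windows, the intervals of all these shares were wide. Some windows also cover the same DNA, among them those of ATG13 and HARBI1, those of AMZ2 and part of those of MTCH1. The TEAD and CCAAT letters of ATG13 and HARBI1 are the same sites, and so are the TEAD letters in the MTCH1 windows. The shares thus count some sites more than once, and the intervals treat the windows as separate.

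The heights within the set were mostly just over the minimum. There were 212 peaks of height 15, 149 of 16, 86 of 17 and 70 of 18, a further 144 had heights of 19 to 24, 45 had 25 to 49, and 19 reached 50 or more. The median was 17 (interquartile range 15 to 19) and the maximum 3852, against a median of 20 for the 9959 shared strong peaks. No control peak overlapped 309 of the 725 (42.6%). The other 416 had a control peak, of height 8 in 169, 7 in 121, 6 in 78, 5 in 31, 4 in 15 and 3 in 2. The values on both sides of the limits ran on without a gap. A further 320 TGF-β1 peaks of height 14 had a control height of 8 or less, and 218 strong peaks had a control height of 9, with a median TGF-β1 height of 17 against 16 for the 169 just inside.

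**Figure D1:**
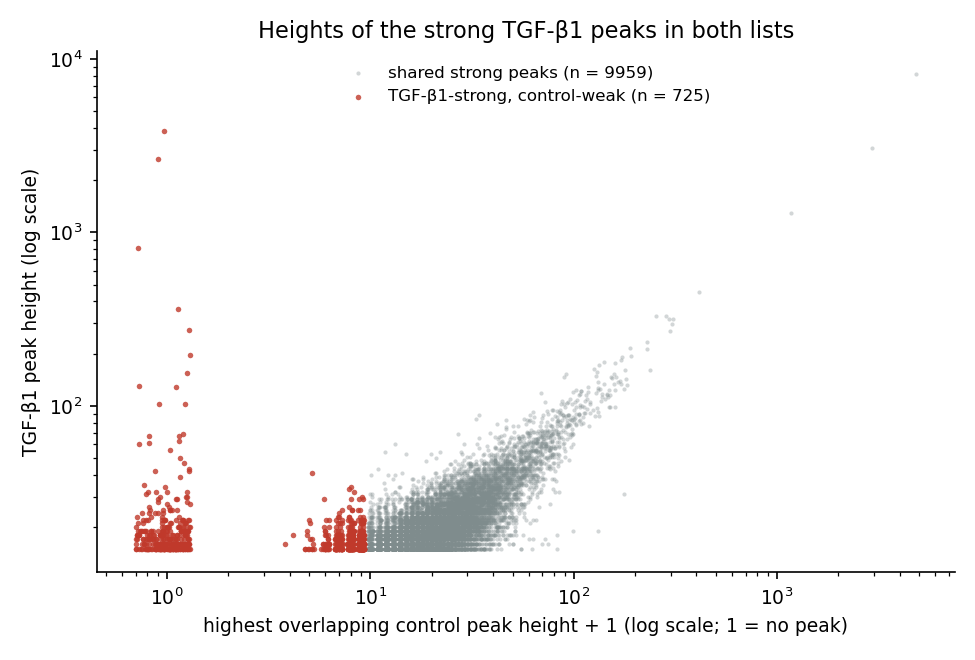
Height of each strong TGF-β1 peak (vertical, log scale) against the height of its highest overlapping control peak plus 1 (horizontal, log scale, points shifted slightly at random sideways). The 725 peaks of the set (red) lie along the left side, with the 309 without a control peak at 1, and the 9959 shared strong peaks (grey) run along the diagonal up to a TGF-β1 height of 8140.

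The opposite rule gave more peaks, not fewer. Of 14063 control peaks of 15 or more in the same blocks, 1674 (11.9%) had no TGF-β1 peak above 8 over them. A control minimum of 17 gives a list of about the same length as the strong TGF-β1 list, 10557 peaks, and then 804 (7.62%) met the opposite rule. The limit of 8 for the TGF-β1 height was kept, so only the minimum was matched. The 1674 had a median height of 16 and a maximum of 466. Where the peaks of both lists reached 30, in 1540 pairs, the TGF-β1 height was 0.911 of the control height at the median (interquartile range 0.783 to 1.06). A height of 15 is therefore not equally strict in the 2 lists, and a share of 6.79% on the TGF-β1 side stands beside 7.62% and 11.9% on the control side.

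A peak without a control overlap often had control signal close by. For the 309, the nearest control peak was 1934 bp away at the median (interquartile range 722 to 5226 bp), and in 51 it lay within 500 bp. Within 1 kb, 49 of the 309 had a control peak of 9 or more and 24 had one of 15 or more. Within 10 kb, 177 had one of 9 or more, and 33 had no control peak of any height. CCN1 shows this at a single gene. It encodes the matricellular protein CYR61, and its TGF-β1 peak of 17 (chr1:85581151-85582705) had no control peak over it, but a control peak of 26 began 189 bp away, and the highest shared peak of CCN1 had heights of 45 with TGF-β1 and 43 in control. The set also lay in the neighbourhood of shared strong peaks, which were 39.2 kb away at the median, with 24.4% (21.3 to 27.7%) of the 725 within 10 kb of one, against 32.2 kb and 28.8% from one shared strong peak to the next.

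The peaks of greatest height were narrow and lay outside genes. The set had a median width of 618 bp (range 223 to 2574), against 884 bp for shared strong peaks and 594 bp for the control-strong peaks of the opposite rule. A width of 300 bp or less was found for 54 of the 725 (7.45%, 5.64 to 9.61%), 31 of the 9959 shared strong peaks (0.311%) and 57 of the 1674 opposite peaks (3.41%). TGF-β1 peaks of any height in these blocks were narrower than the set, with a median width of 341 bp and 39.0% at 300 bp or less. Of the 54 narrow peaks, 51 had no control peak and 31 were over 100 kb from a protein-coding gene, and they held 14 of the 19 peaks of height 50 or more. The other 671 had a median height of 16 and a maximum of 360.

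**Figure D2:**
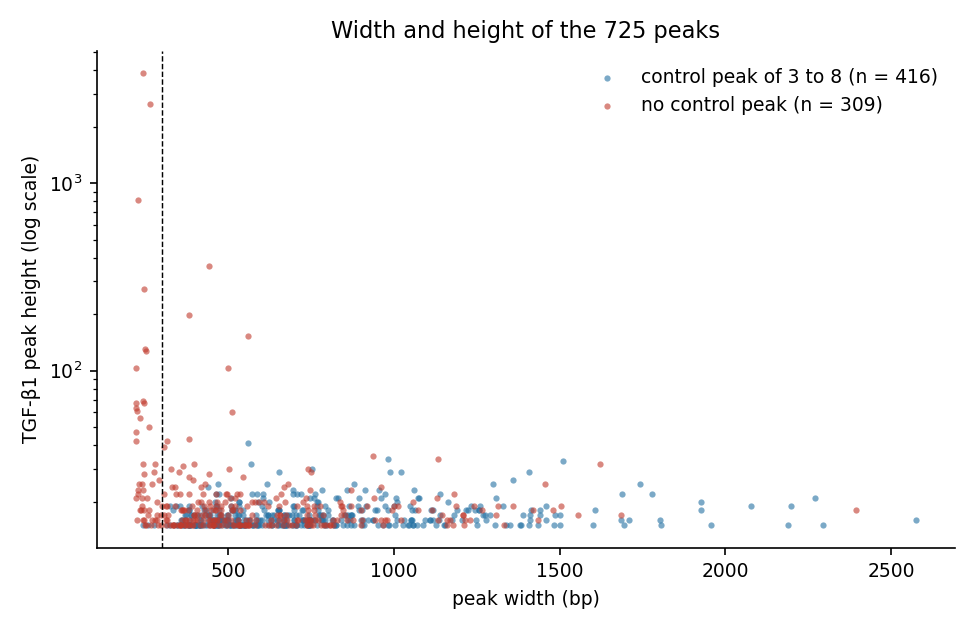
Width (horizontal, bp) and TGF-β1 height (vertical, log scale) of the 725 peaks, red without and blue with an overlapping control peak; the dashed line marks 300 bp. The peaks of 50 or more sit mostly to the left of the line, 14 of 19, and all are without a control peak.

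The 15 highest peaks of the set, all of 63 or more, had no control overlap, and 14 of them were over 100 kb from any protein-coding gene. The first 6 formed one group at chr1:143202542-143262365, 640 kb from the histone gene H3-7, with TGF-β1 heights of 3852, 2645, 814, 360, 274 and 197. The same 59.8 kb held 3 control peaks, of 2929, 1163 and 305, which lay between them and had shared TGF-β1 peaks over them of 3055, 1300 and 317. Both libraries thus had very high peaks at the same 3 places, and the TGF-β1 list had 6 more between and around them. Of the other 9, 5 lay on chromosome 4 between the genes CWH43 and DCUN1D4, with heights of 154 (chr4:49711329-49711888), 130 (chr4:49710593-49710842), 69 (chr4:51161288-51161532), 67 (chr4:51030261-51030507) and 63 (chr4:51711942-51712165). Another 2, of 128 and 67, lay on chromosome 10 at 487.5 and 504.4 kb from ZNF33B, and 1 of 103 lay on chromosome 1 (chr1:121775342-121775564). Within 10 kb of the 15, control peaks of 9 or more were found beside 6 and no control peak beside 7. Whether reads were placed rightly at these peaks was not tested, so their positions and heights are uncertain.

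The remaining one of the 15, with a height of 103, lay in the 5S ribosomal RNA array of chromosome 1 (chr1:228622064-228622564). The array is a run of near-identical copies, and RefSeq lists 12 5S genes, RNA5S1 to RNA5S12, in the stretch. It held 5 peaks of the set, with heights of 103, 43, 42, 31 and 29 and no control overlap, but also 11 control peaks of up to 44, of which 4 met the opposite rule. The group with most peaks, 7 of 15 to 30 within 85.7 kb of chromosome 8 (chr8:85723080-85808778), lay among copies of REXO1L, and there 14 control peaks reached 47, of which 12 met the opposite rule. A group of 5 peaks of 15 to 47 lay at chr9:60585866-60659201, 255 kb from SPATA31A5. A group of 4 lay around the U2 small nuclear RNA gene RNU2-1 (chr17:43232275-43279408), with heights of 16 to 23 beside control peaks of up to 161. Reads from near-identical copies can be placed at the wrong copy, so the position of a peak within such arrays is uncertain. Whether read placement differed between the libraries was not tested. Elsewhere the set was scattered. Joining peaks within 50 kb of the next left 653 groups, of which 609 held 1 peak, 29 held 2 and 15 held 3 or more.

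Location was not part of the rule beyond the blocks left out. Gene-end peaks were those touching a window of 1 kb before to 1 kb after either annotated end of a protein-coding gene. This held for 47 of the 725 (6.48%, 4.80 to 8.53%), 27.1% (26.2 to 28.0%) of shared strong peaks, 17.9% (16.1 to 19.8%) of the opposite peaks and 5.63% of all TGF-β1 peaks. The share in the set was thus near that of TGF-β1 peaks of any height, and its interval lay below those of the other strong peaks. Inside genes, away from the ends, lay 336 (46.3%), against 41.2% of shared strong peaks and 48.9% of all TGF-β1 peaks. Outside genes, 58 (8%) were within 10 kb and 162 (22.3%) at 10 to 100 kb, against 7.37% and 20.5% of all TGF-β1 peaks. Beyond 100 kb lay 122 (16.8%, 14.2 to 19.8%), near the 17.6% of all TGF-β1 peaks, with 7.12% of shared strong and 9.32% of opposite peaks there. Neighbouring peaks are not independent, and the intervals cover counting error only.

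**Figure D3:**
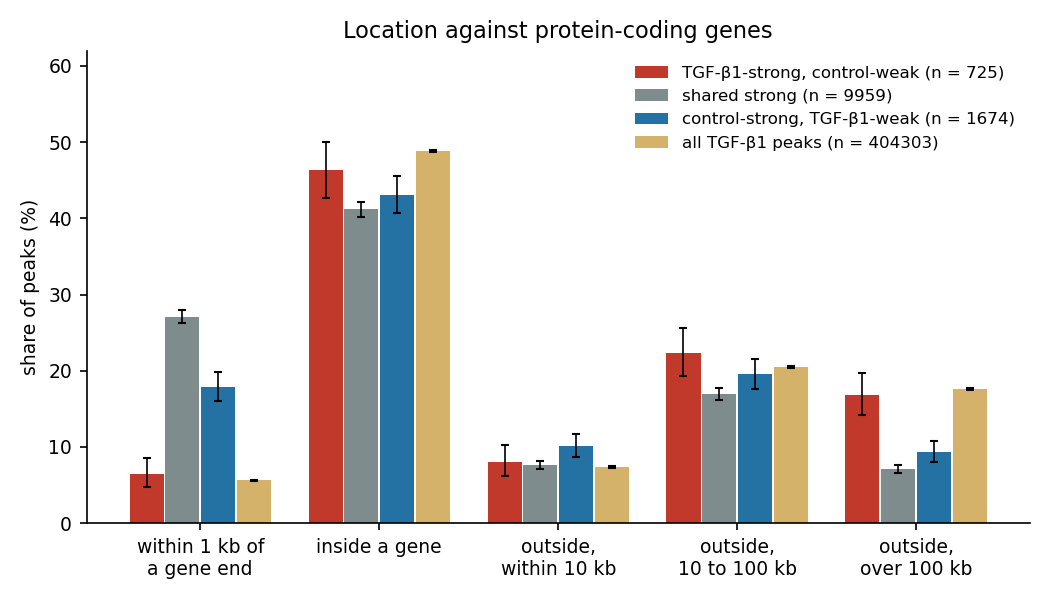
Share of peaks (vertical, %) by place against protein-coding genes (horizontal) for the set (red), shared strong peaks (grey), the opposite peaks (blue) and all TGF-β1 peaks (yellow); bars start at 0 and error bars are exact binomial 95% intervals. At gene ends the red bar, 6.48%, is near the yellow one, 5.63%, and below the grey one, 27.1%.

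At matched heights the share at gene ends was also lower in the set. Among peaks of height 15 or 16 the share was 6.37% in the set and 27.7% in shared strong peaks, at 17 to 19 it was 8.96% and 26.4%, and at 20 or more it was 3.29% (5 of 152) and 27.2%. The share was higher at higher control heights. Among all strong TGF-β1 peaks it was 6.15% with no control peak, 8.33% with a control height of 3 to 5, 6.52% at 6 to 8, 14.2% at 9 to 11, 22.6% at 12 to 14, 25.9% at 15 to 19 and 30.2% at 20 or more. With TGF-β1 heights kept to 15 to 19, the shares were 6.98, 10, 7.23, 15.8, 25.4, 29.5 and 30.03%. Within the set, peaks with no control peak and peaks with a weak one had nearly the same share, 6.15% and 6.73%. Over 100 kb from genes lay 22.3% of the former and 12.7% of the latter, and among peaks wider than 300 bp these shares were 15.1% (10.98 to 20.1%) and 12.6% (9.55 to 16.2%).

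**Figure D4:**
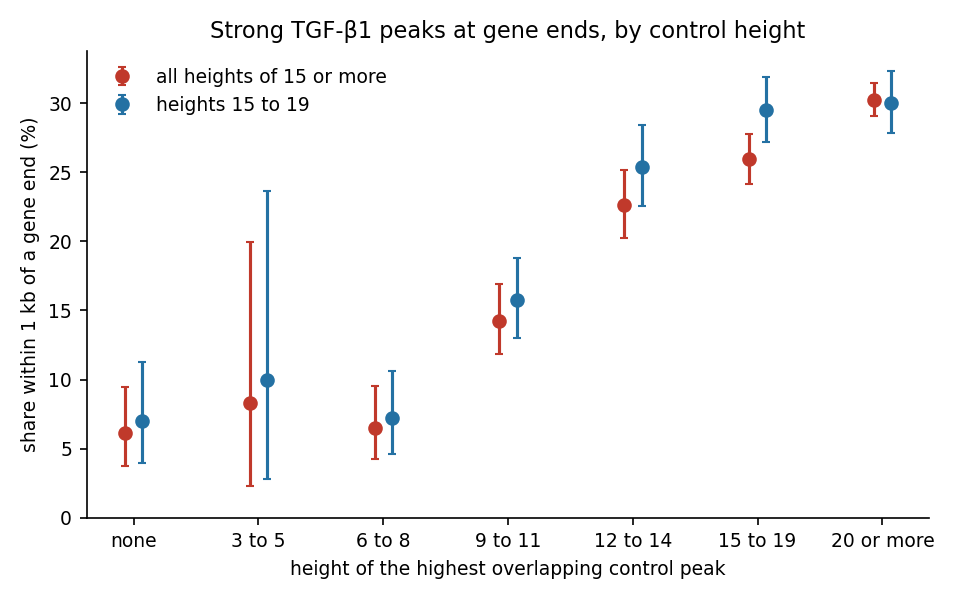
Share of strong TGF-β1 peaks within 1 kb of a gene end (vertical, %) by the height of the highest overlapping control peak (horizontal), for all strong peaks (red) and for TGF-β1 heights of 15 to 19 only (blue), with exact binomial 95% intervals. The first 3 classes make up the set, at 6.15 to 8.33% in red, and the share is 30.2% at control heights of 20 or more.

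Distances to annotated transcription starts gave the same order. With chromosome 8, whose promoter windows were not used here, left out, the nearest start was 49.5 kb away at the median of 684 peaks of the set, 22.3 kb for shared strong and 28.6 kb for opposite peaks. Within 1 kb of a start lay 30 of the 684 (4.39%, 2.98 to 6.20%), against 25.3% and 15.8%. Within 100 kb the shares were 67.4, 80.2 and 76.6%. By full gene spans, 372 of the 725 overlapped a protein-coding gene, 93 overlapped only a lncRNA gene and 260 overlapped neither. The 353 genes that held a peak had a median length of 128 kb, against 24.2 kb for all 19970 protein-coding genes. A peak in the gene or within 1 kb was found for 369 of the 19970 genes (1.85%), for 6.06% of genes of 100 kb or more and for 0.999% of shorter ones. For 53 genes (0.265%) the peak was at an end.

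Of the gene-end peaks, the first in height lay in families of near-identical copies. USP17L11, a deubiquitinase gene of the chromosome 4 copy array, had a TGF-β1 peak of 42 and no control peak, USP17L30 had 25 and none, and USP17L29 had 18 and none. GOLGA8A, a golgin gene of chromosome 15 with many copies, had heights of 32 and 7. TAF11L9 had 21 and no control peak, and NBPF19 had 18 and none. In all, 9 of the 47 gene-end peaks were in such families, a grouping chosen after the values were seen, and their placement is uncertain for the reason given for the 5S array.

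The other 38 gene-end peaks had a median height of 16 and a maximum of 22, and 12 of them had no control peak. TEX19, a germline gene, had a TGF-β1 peak of 22 (chr17:82359779-82360123), and the nearest control peak was 6758 bp away. HMG20B, a subunit of a histone demethylase complex, had 19 and none. With a control peak of 7 or 8 under 19 were ATP6V0B, a subunit of the lysosomal proton pump, the zinc-finger gene ZNF582, and the semaphorin gene SEMA4G. At 18, beside PHF14, stood the E-box factor USF2 (control 7, chr19:35268824-35269158), the collagen-modifying enzyme gene P3H1 (8), the translationally controlled tumour protein gene TPT1 (8), the zinc-finger gene ZNF460 (5) and the Wnt receptor gene FZD9 (6). At 17, beside CYCS, CCN1 and GADD45G, stood the nuclear import receptor gene KPNB1 and the opioid growth factor receptor gene OGFR, both without a control peak, and the glycosyltransferase gene B3GNT6 (control 4). At 16 the shared start of ATG13 and HARBI1 had a control peak of 8. A gene end is either end of a gene, so not all of these peaks were at starts. Those at PHF14, CYCS and USF2 lay on an annotated start, and those at P3H1 and ZNF460 0.4 and 0.98 kb from one. The peaks at FZD9, ATP6V0B, HMG20B, TPT1, ZNF582 and SEMA4G lay 2.3, 2.5, 7.1, 8.6, 8.9 and 12.9 kb from the starts of these genes. No theme was tested among these genes.

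The 336 peaks inside genes had a median height of 16 and a maximum of 41. Those over 300 bp wide with the highest values, which were picked after their values were seen, were in SMARCC1, a core subunit of the SWI/SNF remodelling complex (heights 41 and 4, chr3:47605551-47606112), and PRDM15, a zinc-finger regulator (39 and no control peak, chr21:41806053-41806360). They were followed by TPST1, a tyrosine sulfotransferase gene (34 and 7), TGFB2 (33 and 7), TP63, the p53-family regulator of basal epithelium (32 and none, chr3:189818919-189820539), and at 30 the demethylase gene KDM4B (8), BICC1, an RNA-binding protein known in cystic kidney disease (none), and the methyltransferase gene EHMT1 (none). Just outside genes, a peak of 35 lay 2.1 kb from PLEKHA1 and one of 34 lay 8.7 kb from FRMD6, both without an overlapping control peak. The nearest control peaks to these, of 18 and 8, were 1954 and 1663 bp away, and control reached 35 within 10 kb of the latter. Beside the TP63 and BICC1 peaks, control peaks of 7 and 6 lay 506 and 957 bp away. Those nearest to the PRDM15 and EHMT1 peaks, of 5 and 9, were 6157 and 7046 bp away. In TP63 no shared strong peak was found, and a second peak of the set, of 21, lay 24.0 kb outside the gene. No shared strong peak was found in PRDM15 and KDM4B either. In SMARCC1 the highest shared peak had heights of 35 with TGF-β1 and 37 in control. The same heights were 27 and 24 in TGFB2, 20 and 17 in TPST1, 25 and 11 in BICC1, and 17 and 10 in EHMT1. These genes as a whole were thus not weak in control.

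Genes with most peaks of the set held 3 each. ATXN1, a transcriptional co-repressor gene of 462 kb, had TGF-β1 heights of 17, 16 and 16 over control heights of 8, 8 and 7, besides 8 shared strong peaks and 1 opposite peak. ERC1, an active-zone scaffold gene of 506 kb, had 22, 16 and 15, the first 2 without a control peak and the last with 7. MED12L, a Mediator subunit gene with the nucleotide-sugar receptor gene P2RY14 inside it, had 18, 17 and 15 over 6, none and 8. TMEFF1, which the read-through gene MSANTD3-TMEFF1 overlaps, had 16, 16 and 15 over 8, 8 and none. Shared strong peaks were also found in ERC1 (3, the highest of 36 and 34) and MED12L (4, the highest of 27 and 40). TMEFF1 held 1 shared strong peak, of 20 and 11, and 1 opposite peak. A further 23 genes held 2 peaks of the set.

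Gene lists for the tissue and the treatment held 303 genes, of which 11 had a peak of the set in the gene or within 1 kb and 2 had one at an end, beside 1.85% and 0.265% of all genes. Peaks of the opposite rule, counted the same way, were in 26 of the 303 and in 5.11% of all genes, and 3 of the 11 genes held both kinds. Gene length was not matched in these counts. The median length ran from 16.3 kb (hypoxia) to 48.9 kb (TGF-β) by list, against 24.2 kb for all genes. A peak of the set was found for 6.06% of genes of 100 kb or more and 0.999% of shorter ones. The TGF-β list had 2 of 36, against 8 of 36 with an opposite peak. TGFB2, the ligand TGF-β2, had a peak of 33 over a control height of 7 (chr1:218373949-218375457, 28.6 kb from the start), besides 5 shared strong peaks of up to 27 and 24. LTBP2, a latent TGF-β binding protein, had 16 and no control peak, and also an opposite peak and a shared strong peak of 21 and 15. The matrix and myofibroblast list had 3 of 48, and 3 of 48 with an opposite peak. The former were CCN1, the crosslinking enzyme gene LOXL2 (19 and 8) and the fibrillar collagen gene COL5A2 (18 and 8), which also held an opposite peak. Of the junction and EMT list, 1 of 32 was found, the kidney cadherin gene CDH6 (15 and 8), which also held an opposite peak and a shared one of 16 and 16. Among the glycolysis genes 1 of 34 was found, PFKFB3, whose product makes the activator of phosphofructokinase (17 and 7), and among autophagy genes 1 of 28, ATG13 of the initiating kinase complex (16 and 8).

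The forkhead list, with FOXK partners, had 2 of 38, FOXP4 (22 and 6, chr6:41578042-41579729) and FOXO3 (16 and 8), and FOXO3 also had a shared strong peak of 64 and 65. Of the proximal tubule list 1 of 27 was found, the endocytic receptor gene CUBN, with peaks of 17 and 16 over control heights of 7 and 6. The list of AP-1 and Hippo effectors (0 of 29), the hypoxia list (0 of 15) and markers of other cell types (0 of 16) had none. CCN1 was counted in the matrix and myofibroblast list and not in the effector list. Apart from TGFB2 and FOXP4, the 11 genes had TGF-β1 heights of 15 to 19.

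Counting instead the gene whose start was nearest, within 100 kb, gave 419 of 15811 protein-coding genes with a promoter entry (2.65%) and 11 of 236 listed genes (4.66%). The TGF-β list had 4 of 33 (12.1%). Besides TGFB2 these were PMEPA1, a feedback inhibitor of the pathway, SMURF1, a ubiquitin ligase of receptors and SMADs, and the SMAD co-repressor gene TGIF1. PMEPA1 had a peak of 25 at 60.9 kb from its start (chr20:57772373-57773054) with no control peak within 10 kb, while its own highest shared peak had 32 with TGF-β1 and 54 in control. SMURF1, which held an opposite peak, had 2 peaks of 16 over control heights of 6, at 52.6 and 56.5 kb and inside KPNA7, and TGIF1 had 16 over 7 at 30.8 kb. The matrix list had 3 of 34 (8.82%): the fibronectin gene FN1 (16 and 7, at 91.5 kb), the integrin gene ITGA5 (15 and none, at 35.5 kb) and the collagen gene COL6A2 (15 and 8, at 44.3 kb). HIF1A, the oxygen-regulated factor of the hypoxia list, had 16 and 7 at 52.8 kb, and an opposite peak in the gene. These counts are 1 to 4 genes a list, the nearest start need not be the gene a peak acts on, and no list was tested. No nearest-start count is given for opposite or shared strong peaks, so the shares cannot be called particular to the set. By gene spans, the TGF-β list had 2 of 36 with a peak of the set and 8 of 36 with an opposite peak.

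Across chromosomes the set made up 4.90% (chromosome 16) to 14.5% (chromosome 21, 7.45 to 24.4%) of strong TGF-β1 peaks. Chromosome X had 11.5%, chromosome 4 had 9.45% and chromosome 3 had 4.96%. Of the 53 peaks on chromosome 4, 17 were 300 bp wide or less. The intervals of most chromosomes overlapped.

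**Figure D5:**
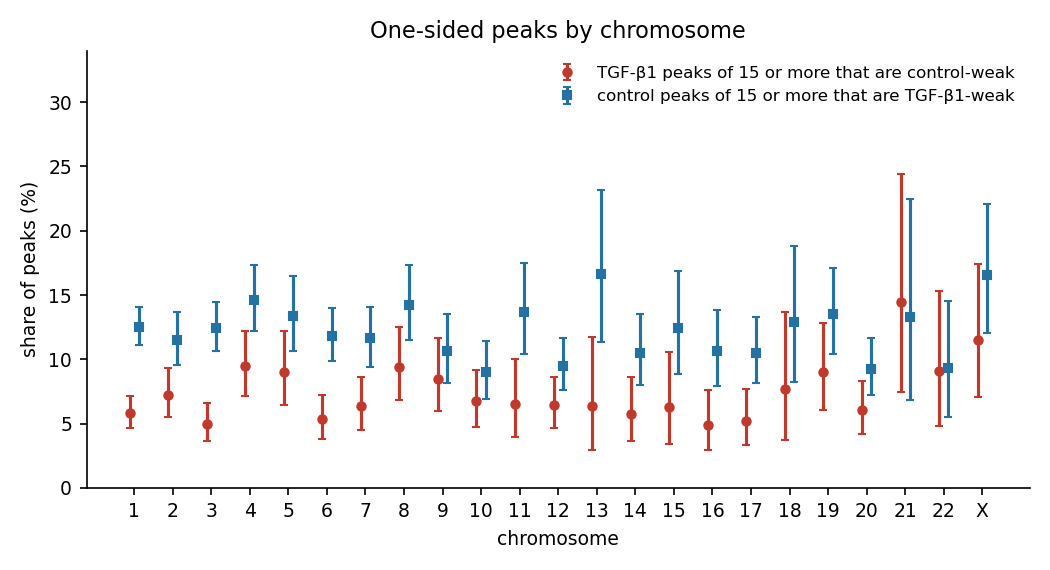
Share of strong TGF-β1 peaks that belong to the set (red, %) and share of control peaks of 15 or more that meet the opposite rule (blue, %) on each chromosome, with exact binomial 95% intervals. The red shares run from 4.90% on chromosome 16 to 14.5% on chromosome 21, where the interval is widest.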

How the data were processed

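Chromatin of HK-2 cells was immunoprecipitated for FOXK1 with and without TGF-β1, and the authors deposited 1 peak list per condition, called separately. The deposited measure is a signal, the pileup height of each peak, read as such from the values, which are whole numbers of at least 3. The build was hg38, and the submitters' processing notes name MACS2 2.1.1.20160309 and bcl2fastq 2.17. The aligner, read filters, peak threshold and depth are not given in the sources used here. Input libraries entered only through the authors' calls.

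Starts were read as counting from 0 and are printed counting from 1. Overlap needed 1 bp. Genes, starts and promoter sequences came from RefSeq tables on GRCh38.p14, without chromosome 8 starts and without exons. Shares have exact binomial (Clopper-Pearson) 95% intervals for counting error only. Work was done with Python 3.11.15, numpy 2.4.6, pandas 2.3.3, scipy 1.17.1 and matplotlib 3.10.9, and overlap and distance steps were tested on simulated data. No test or p-value was possible with 1 library per condition.

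The peaks, gene lists and motifs were chosen with earlier results of these data known. Named were the 15 highest peaks, the 12 highest without a control peak, up to 20 highest gene-end peaks, peaks of listed genes, the highest 5 beyond 100 kb, the 3 densest groups, taken as those with most peaks, and the 5 genes with most peaks. Wide peaks, peaks near listed starts and a few groups were named after their values were seen. Other heights, overlaps, windows, widths and blocks were tried.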

Additional observations from a re-analysis of the deposited data

Results flagged for a closer look

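The 1 Mb blocks without a protein-coding gene, left out above, held 657 strong TGF-β1 peaks, of which 438 (66.7%) met the same height rule, with a maximum of 7187. This is a signal in data outside the comparison. In the same blocks 411 of 678 control peaks of 15 or more met the opposite rule, with a maximum of 224. The blocks were not described further.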

How the results depend on the processing

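The number of peaks in the set, 725, moved with the limits that define it. It was 2399 at a TGF-β1 minimum of 12 and 152 at 20, 357 with a control height of at most 5 and 1219 with at most 10, 2000 when a control peak had to cover 50% of the TGF-β1 peak, and 1163 with no blocks left out. It was 677 when control peaks within 500 bp counted and 709 with blocks shifted by 0.5 Mb. Chosen after seeing the data, leaving out peaks of 300 bp or less gave 671. The opposite count fell from 1674 to 804 at the matched minimum.

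The gene-end share, 6.48%, was 9.38% with a window of 2 kb, 17.4% with 5 kb and 3.29% at a minimum height of 20. With the same windows shared strong peaks had 30.8% and 38.3%, and opposite peaks 22.6% and 32.1%. By midpoints, also chosen later, the 3 shares were 5.10, 23.7 and 15.5%. The share of promoter windows with TAAACA, 13.3%, became 100% at heights of 20 or more, where 1 window was left. Unknown depth and 1 library per condition limit all values. No paired analysis was possible because each condition had 1 FOXK1 library and no test was made.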
